A study of Mus musculus with 2 samples.

Results

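Potassium channel genes were followed in ureters of mouse embryos with and without a conditional mutation of Fgfr2, which encodes an FGF receptor. The genes are those whose array name is Kcn followed by letters and a number, which gave 92 of the 30011 genes on the array and 140 of its 39429 probes. Each gene is represented by its brightest probe that was well above background, and 65 of the 92 genes were measured in this way. Mutant embryos carried Pax2-cre/+ and were Fgfr2(fl/fl) with Fgfr1(fl/?). Control embryos had no Cre and were Fgfr2(fl/?) with Fgfr1(fl/?). Here "?" stands for a wild-type or a floxed allele. All embryos of both groups therefore carried a floxed Fgfr1 allele, and only the other Fgfr1 allele could be wild-type. All embryos were NMRI mice at E13.5, and the mutant pool mixed ureters that differed in Fgfr1. The transgene carries the Pax2 promoter, with the cells in which it acted not given in the sources used here. RNA of a mutant and a control pool was hybridised together on each of 2 two-colour Agilent arrays. Array 1 held female pools with the mutant in Cy5, and array 2 male pools with the mutant in Cy3, so sex, dye and array cannot be told apart.

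Potassium channels let potassium leave or enter cells and set the membrane potential. Kcna to Kcnd, Kcnq and Kcnh genes encode voltage-gated pore subunits, Kcnj genes inward rectifiers, Kcnk genes leak channels, and Kcnma and Kcnn genes calcium-activated channels, while Kcnab, Kcne, Kcnip and Kcnmb genes encode accessory subunits. In the mature ureter such channels set the excitability of smooth muscle, and in kidney and urinary epithelia they recycle potassium beside the sodium pump.

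The sequences to which the values of 7 genes described in detail refer are given first, as the 5′ 30 bases of each 60-base probe, as the array files print it. No base is marked in capitals, and exon or untranslated position of the probes is not analysed here. On mm9 the probes lie at chr11:110889223-110889282 (plus strand) for Kcnj16, chr1:174304062-174304121 (plus) for Kcnj10, chr8:128554281-128554340 (plus) for Kcnk1, chr3:105476854-105476913 (plus) for Kcnd3, chr6:126586524-126586583 (minus) for Kcna1, chr2:163684551-163684610 (plus) for Kcnk15 and chr6:142513487-142513546 (minus) for Kcnj8.
Kcnj16: ttataacatgctttgacacgcctgatggct
Kcnj10: gaaacagaagaatctagggatgatttctct
Kcnk1: cctaacaaactcaagagaaaatcggtacga
Kcnd3: tactgagtcctgtgccactgctgtacctga
Kcna1: gcgcatagttttcatctatgcaattttact
Kcnk15: gccacgcatcattgccacagcagcccagac
Kcnj8: cacgggtcatcatgaatatgttcaaatcta

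Of all probes, 67.9% to 77% were well above background per channel. The probes of Fgfr2 were not lower in the mutant pools, with log2 mutant-over-control ratios of 0.27 on array 1 and 0.06 on array 2 at the brighter probe, and the floxed segment is not located in the sources used here. On array 2 the brighter probe of Xist, an RNA of the inactive X chromosome, read 8.39 for the mutant pool and 9.996 for the control pool, against 12.42 in both channels of array 1 (normalised log2 intensity). Ddx3y, a gene of the Y chromosome, read 11.88 for the mutant and 11.57 for the control pool on array 2, against 8.15 and 8.44 on array 1. Whether the control pool of array 2 held female RNA was not tested. Ratios are therefore given for each array, except where probes, settings or ranges are compared by the mean of both arrays. Most markers of blood and skeletal muscle were higher in the mutant pools. On both arrays 9 of 11 leukocyte, 7 of 9 erythroid and 8 of 9 skeletal muscle markers were higher, against 22.1% of all genes. After median centring the numbers were 10, 5 and 8, against 15.5% of all genes. Of 9 smooth muscle markers, 4 were higher on both arrays.

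Most voltage-gated, leak and Kcnq genes were measured, and 27 potassium channel genes were not. Of the 27, 19 were well above background in no channel and 8 in some channels only. Among those in no channel were Kcnmb1, the smooth muscle accessory subunit of the large-conductance channel, Kcnj11, a pore of ATP-sensitive channels, and Kcnj1, the potassium secretion channel of kidney tubules. Kcnn4, an intermediate-conductance calcium-activated channel, was well above background in 1 channel. All 5 Kcnq genes, 15 of 17 Kcna-d genes, 11 of 14 Kcnk genes, 10 of 15 Kcnj genes and 5 of 9 Kcnm/n genes were measured. The modifier genes Kcnf, Kcng, Kcns and Kcnv, whose products form channels only with other pore subunits, had 5 of 10 measured.

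**Figure D1:**
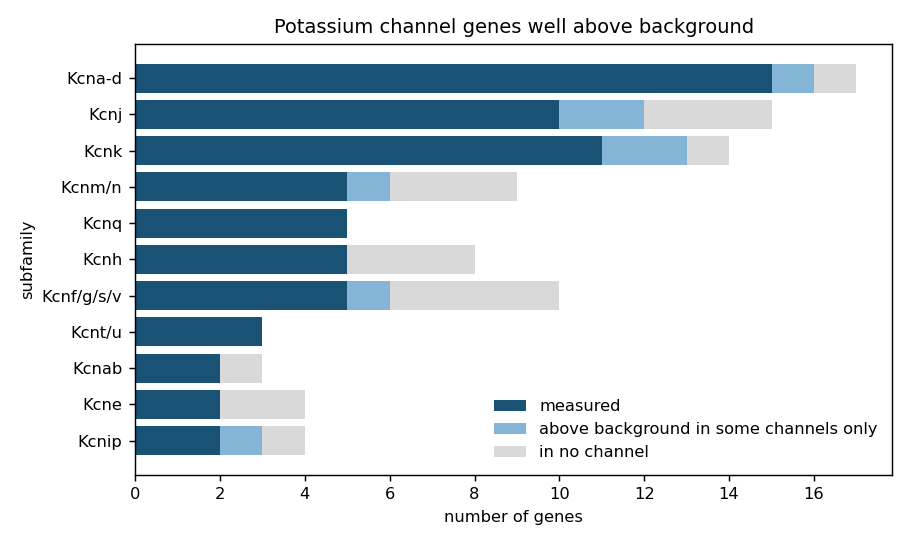
Number of potassium channel genes (horizontal axis) per subfamily, split into genes measured (dark blue), genes well above background in some channels only (light blue) and genes in no channel (grey). All 5 Kcnq genes were measured, against 5 of 9 Kcnm/n genes.

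No potassium channel gene passed limma's test at an adjusted p of 0.05, where 0.0287% of all 20923 measured genes did, and the lowest adjusted p of a member was 0.399. At an unadjusted p under 0.05 in limma there were 8 of 65 genes (12.3%), against 4.04% of all genes. Of these 8, Kcnj16, Kcnj10 and Kcnd3 were lower and Kcna1, Kcnj8, Kcnf1, Kcnv1 and Kcnab1 higher in the mutant pools. Kcnj16, 1 gene, was at least 1.5-fold lower on both arrays (0.0956% of all genes), and 0 were at least 1.5-fold higher on both (0.296% of all genes). On array 1 alone 3 of 65 members lay beyond 1.5-fold (1.91% of all genes), and on array 2 alone 8 of 65 did (6.88% of all genes). On 1 array or both there were 10 of 65 (8.3% of all genes). Higher on both arrays were 22 of 65 members (33.8%, against 22.1% of all genes). Lower on both were 13 (20%, against 21.4% of all genes). That split depends on the scaling: it was 18 higher and 19 lower after median centring (15.5% and 38.1% of all genes) and 18 and 17 with the deposited processed signals (19.7% and 25.2%). The median log2 ratio of the 65 genes was 0.04 on array 1 and -0.02 on array 2, against -0.00051 and 0.0053 for all genes. The p-values measure only the spread between these 2 arrays.

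**Figure D2:**
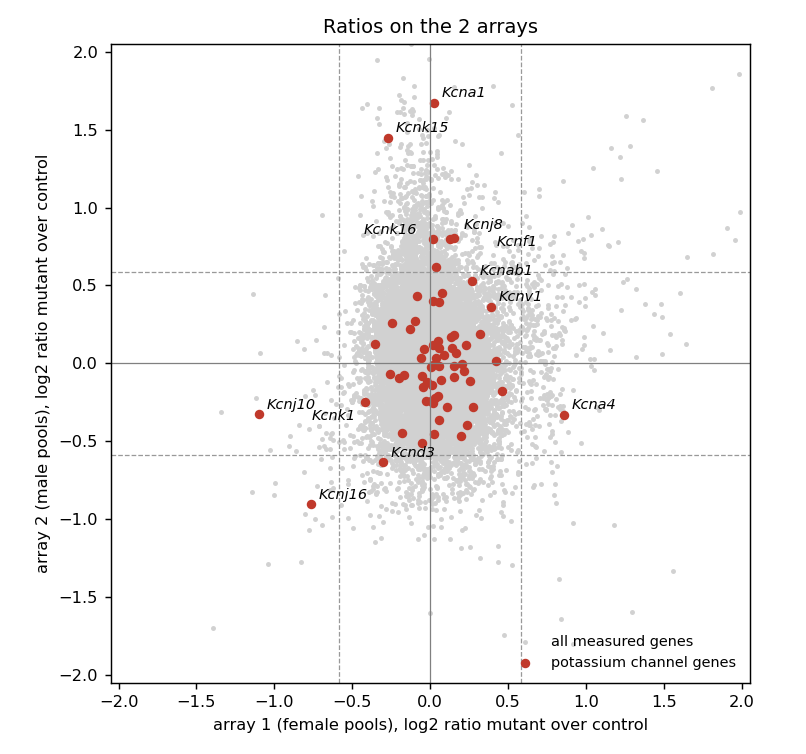
Log2 ratio of mutant over control for each measured gene on array 1 (horizontal axis) and array 2 (vertical axis), with potassium channel genes in red over all measured genes in grey and dashed lines at 1.5-fold. Kcnj16 lies in the lower left corner beyond 1.5-fold on both arrays, and Kcna1 and Kcnk15 are high on array 2 alone. The axes leave out 8 genes.

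The inward rectifier Kcnj16 was lower in both mutant pools. It encodes a subunit that is silent alone and joins the product of Kcnj10 in channels of distal kidney tubules and glia. Kcnj16 was at 11.19 and 10.69 in the mutant pools of arrays 1 and 2, against 11.95 and 11.59 in the control pools (normalised log2 intensity). Both mutant values lay below both control values. Its log2 ratios were -0.76 and -0.90, with a mean of -0.83 ± 0.099 (SD, n = 2 arrays), which is 1.78-fold lower (limma adjusted p = 0.399). The single spots ranged over -0.87 to -0.65 on array 1 (3 spots) and -1.11 to -0.69 on array 2 (4 spots), all below 0. In pooled tissue, fewer cells of a type and less RNA per cell cannot be told apart.

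Kcnj10, the pore-forming partner of Kcnj16, was lower by unequal amounts. It was at 8.31 and 8.70 in the mutant pools, against 9.41 and 9.03 in the control pools. The groups did not overlap, and the distance was larger on array 1. The log2 ratios were -1.10 on array 1 and -0.32 on array 2, with a mean of -0.71 ± 0.55 (SD, n = 2 arrays, limma adjusted p = 0.94). Beside these genes, 4 of 10 markers of the ureteric epithelium were lower and 3 were higher on both arrays, and their mean log2 level was 10.73 and 10.92 in the mutant pools, against 10.64 and 10.77 in the control pools. All 10 of these markers were measured. The neuron and glia markers were at 10.50 and 11.05 in the mutant pools and 10.19 and 10.702 in the control pools. On both arrays 8 of these 10 markers were higher, against 22.1% of all genes. After median centring 5 of 10 were higher on both arrays, against 15.5% of all genes. The part of either cell group in these results was not tested.

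The gene next to Kcnj16 in RefSeq order, Kcnj2, which encodes a classical strong inward rectifier, was at log2 ratios of -0.04 and -0.15, while its array 2 ratio was -0.39 with the processed signals and -0.44 in the series table. Of 12 neighbouring pairs in which a member stands beside another member or an ABCC partner gene, 6 had both genes measured. The promoters of Kcnj16 and Kcnj10 are printed because the 2 genes had the lowest mean ratios of the family. They are the 250 bases before a RefSeq start on GRCm38.p6, chr11:111019335-111019584 (plus strand) for Kcnj16 and chr1:172340960-172341209 (plus strand) for the start of Kcnj10. Capitals mark a TATAAA match. Kcnj16 has 4 RefSeq starts, and the window printed is the 1 that held a motif searched, while the other 3 held none.
Kcnj16: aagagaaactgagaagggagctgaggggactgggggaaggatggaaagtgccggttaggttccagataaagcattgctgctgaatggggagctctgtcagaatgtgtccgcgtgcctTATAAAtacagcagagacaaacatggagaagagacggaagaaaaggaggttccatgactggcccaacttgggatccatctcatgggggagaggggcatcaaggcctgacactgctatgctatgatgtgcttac
Kcnj10: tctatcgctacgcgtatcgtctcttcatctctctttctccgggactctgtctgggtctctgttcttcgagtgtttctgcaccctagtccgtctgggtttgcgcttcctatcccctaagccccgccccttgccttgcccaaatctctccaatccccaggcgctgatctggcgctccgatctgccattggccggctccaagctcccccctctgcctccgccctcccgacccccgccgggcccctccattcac

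The Kcnj16 window had a GC content of 51.2% with 4 CpG sites, and the Kcnj10 window had 62% with 17. Promoters were found for 67 of the 92 genes, giving 92 windows. On either strand TATAAA was present in 3.26% of them, those of Kcnj16, Kcnj13 and Kcnj9, against 12.4% of all 32851 promoter windows. The AP-1 letters TGANTCA were present in 4.35% of the members' windows and 6.75% of all. The ETS letters CCGGAAGT were found in no member's window, against 2.88% of all windows, and the HNF1 consensus likewise in none, against 0.0609%. The motifs were searched without regard to overlap, and a missing match says only that these letters are not in these windows.

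The other inward rectifiers lay near 0 or differed in sign between the arrays, except Kcnj8, which was higher on both by unequal amounts. Kcnj8, the pore of vascular ATP-sensitive channels, was at 7.53 and 8.17 in the mutant pools, against 7.37 and 7.37 in the control pools. Both mutant values were above both control values, and the distance was larger on array 2. The log2 ratios were 0.15 and 0.80, with a mean of 0.48 ± 0.46 (SD, n = 2 arrays, limma adjusted p = 1). Its partner and neighbour Abcc9, the regulatory subunit of the same channel, was at -0.10 and 0.16. Of 5 other pericyte markers, 0 were higher and 1 was lower on both arrays, and their part was not tested. Kcnj14 had log2 ratios of 0.02 and -0.01, among the 3 smallest of the family, and Kcnj15, a rectifier of kidney epithelium, had -0.10 and 0.27. Of the 10 measured Kcnj genes, both arrays gave a higher value for 2 and a lower value for 3, and the medians were 0.05 and -0.11.

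**Figure D3:**
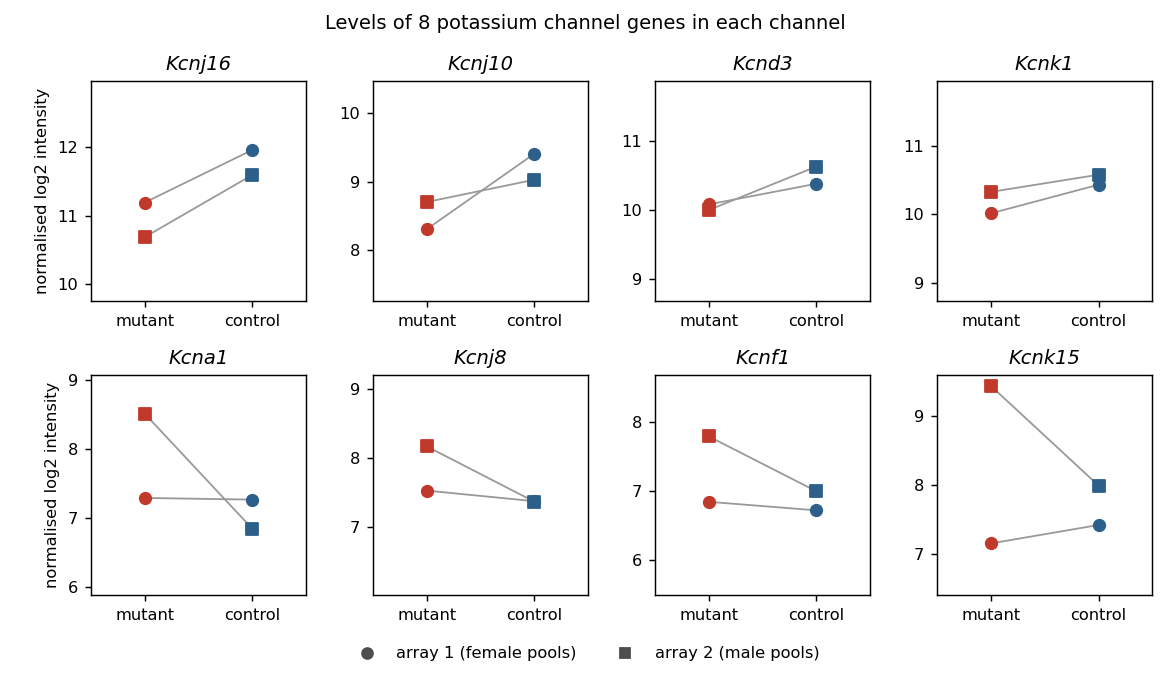
Normalised log2 intensity (vertical axis, each panel with its own offset and the same span) of 8 genes in mutant (red, left) and control (blue, right) pools, with a line joining the 2 channels of an array. Circles are array 1 (female pools) and squares array 2 (male pools). Kcnj16, Kcnj10, Kcnd3 and Kcnk1 slope up to the control on both arrays, and Kcna1 and Kcnk15 separate on array 2.

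Among the voltage-gated genes Kcna to Kcnd, 7 of 15 measured were higher on both arrays and 3 lower, with medians of 0.13 and 0.04. In the series table the numbers were 6 and 5. Kcnd3, the pore of transient outward currents in heart and neurons, was at 10.08 and 10.0005 in the mutant pools, against 10.38 and 10.63 in the control pools. The groups did not overlap, and the log2 ratios were -0.30 and -0.63 (mean -0.47 ± 0.23, SD, n = 2 arrays, limma adjusted p = 1). Of 10 markers of the ureteric mesenchyme, 6 were lower and 2 higher on both arrays beside it, with a mean log2 level of 12.86 and 12.82 in the mutant pools, against 13.00 and 13.11 in the control pools, and their part was not tested. Kcnc2, a fast-spiking neuronal channel, had ratios of -0.05 and -0.51, with a mean of -0.28, or -0.58 with the processed signals.

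Kcna1, an axonal channel of the Shaker type, was high in the male mutant pool alone. It was at 7.29 and 8.51 in the mutant pools, against 7.26 and 6.84 in the control pools. The female pools were nearly equal, and the male pools were far apart. Its log2 ratios were 0.02 and 1.67, with a mean of 0.85 ± 1.17 (SD, n = 2 arrays, limma adjusted p = 1). The 4 spots ran from -0.02 to 0.06 on array 1 and from 1.498 to 1.84 on array 2. With the processed signals its ratios were -0.05 and 2.55, so the sign on array 1 depends on the scaling. The 10 neuron and glia markers, given above, had median ratios of 0.33 on array 1 and 0.22 on array 2, but single markers differed. Sox10 was at 0.08 and 1.22 and Snap25 at -0.06 and 0.85, larger on array 2. Stmn2 was at 0.68 and 0.26 and Tubb3 at 0.64 and 0.10, larger on array 1. The part of nerve cells in the Kcna1 value was not tested. The neighbours of Kcna1, Kcna5 and Kcna6, were at 0.22 and -0.05, and at 0.32 and 0.19. Kcna4, also of the Shaker type, differed in sign, with 11.99 and 11.13 in the mutant pools against 11.13 and 11.46 in the control pools and ratios of 0.86 and -0.33.

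Of the 15 members with several measured probes, 8 had probes whose mean ratios differed in sign, none with a gap of 0.58 or more, and their direction is uncertain. The voltage-gated ones were Kcna5, Kcna6, Kcna7 and Kcnd1. Kcna6 had means from -0.02 to 0.25 over 3 probes, and Kcnd1, a transient outward channel, from -0.07 to 0.15 over 2 probes. Kcna7, a Shaker-type channel, ran from -0.06 to 0.18 over 2 probes, and Kcna5, a channel of heart and vascular muscle, from -0.08 to 0.09 over 2 probes. Averaged over their probes, the mean ratios were 0.09 for Kcna6, 0.06 for Kcna7 and 0.04 for Kcnd1, and that of Kcna5 was 0.00504.

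The leak channels Kcnk had 4 of 11 measured members higher and 1 lower on both arrays, with medians of 0.02 and 0.12. Kcnk1, a leak channel of kidney epithelia and brain, was the lower one. It was at 10.01 and 10.33 in the mutant pools, against 10.43 and 10.58 in the control pools, and the groups did not overlap. The log2 ratios were -0.42 and -0.25 (mean -0.33 ± 0.12, SD, n = 2 arrays, limma adjusted p = 1). Kcnk15, a relative of the acid-sensitive leak channels, was at 7.15 and 9.44 in the mutant pools. The control pools were at 7.41 and 7.99, and the ratios were -0.27 and 1.45. The ratios of Kcnk15 had opposite signs, and its spots on array 2 ran from 1.28 to 1.55. With the processed signals its array 1 ratio was -0.50. Kcnk16, a pancreatic leak channel, was at 0.02 and 0.80, while its neighbour Kcnk5 was at -0.13 and 0.22. Kcnk10 and Kcnk2, mechanosensitive leak channels, were at 0.02 and 0.40, and at 0.05 and 0.15. The mean for Kcnk10 was 0.21, or 0.33 with the processed signals. The 2 measured probes of Kcnk4, of the same type, had means of -0.10 and 0.09.

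**Figure D4:**
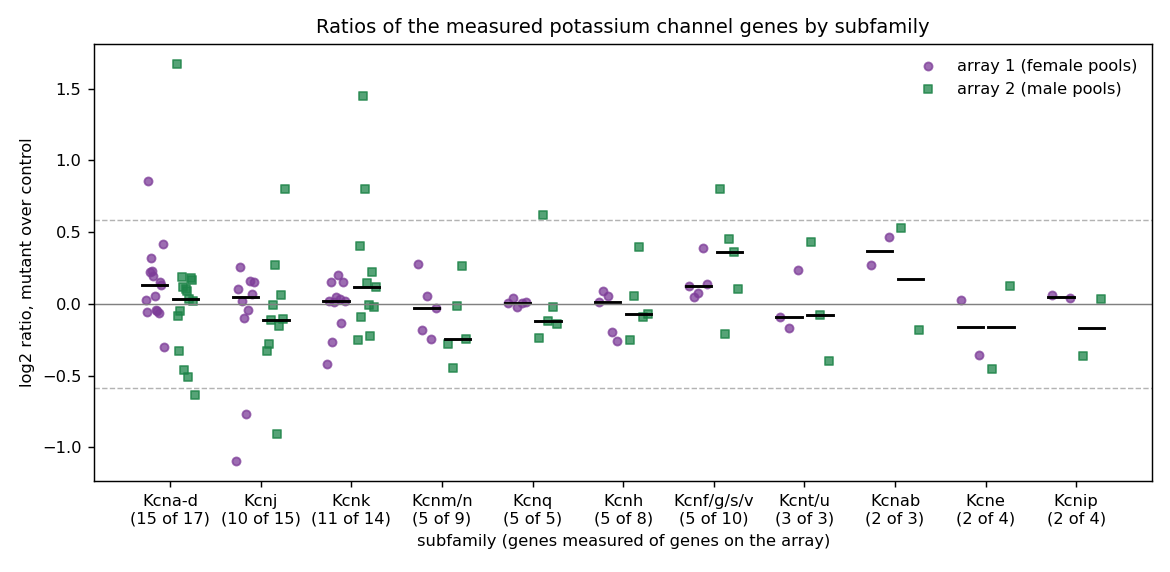
Log2 ratio of mutant over control (vertical axis) of each measured gene by subfamily, with purple circles for array 1 and green squares for array 2, black lines for medians and dashed lines at 1.5-fold. The labels give the genes measured of those on the array. The Kcnf/g/s/v medians are 0.12 and 0.36, and the Kcnj medians 0.05 and -0.11.

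The mean ratios of the measured Kcnm/n genes of calcium-activated channels ran from -0.31 to 0.02. Of 5 measured Kcnm/n genes, 2 were lower on both arrays and 0 higher, with medians of -0.03 and -0.24. These values rest on the brightest probe of each gene. Kcnmb4, an accessory subunit, was at 0.06 and -0.02 by that probe, but at 0.17 and 0.10 by its other measured probe. Kcnmb2, an accessory subunit that inactivates the large-conductance channel, was at 7.08 and 6.70 in the mutant pools, against 7.26 and 7.14 in the control pools (ratios -0.18 and -0.44). Its mean ratio was -0.31, or -0.71 with the processed signals. Kcnma1, the pore of the large-conductance channel of smooth muscle, was at 9.22 and 8.94 in the mutant pools, against 8.94 and 9.22 in the control pools. Its ratios were 0.28 and -0.28, and its 4 measured probes had means between -0.000037 and 0.16. Kcnn3, a small-conductance channel, was at -0.03 and -0.24. Beside Kcnma1, 9 of 9 smooth muscle markers were higher on array 1 and 4 of 9 on array 2. Their mean log2 level was 9.62 and 9.17 in the mutant pools, against 9.27 and 9.36 in the control pools, and their part was not tested.

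The Kcnq genes, which carry slow voltage-gated currents, had 1 of 5 members higher and 1 lower on both arrays, or 3 lower with the processed signals. The medians were 0.0067 and -0.12. Kcnq3, a neuronal subunit, was the lower one, at -0.02 and -0.12, and 1 or more of its channels were not well above background. Kcnq1 and Kcnq5, known from epithelia and smooth muscle, were at 0.0043 and -0.24, and at 0.01 and -0.14. With the processed signals the means were -0.24 for Kcnq3, against -0.07, and -0.17 for Kcnq5, against -0.06.

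Of the modifier genes, 4 of 5 measured were higher on both arrays and 0 lower, with medians of 0.12 and 0.36. After median centring 3 of 5 were higher on both arrays and 0 lower, and the median of the mean ratios was 0.15, against 0.26. Kcnf1 was at 6.85 and 7.80 in the mutant pools, against 6.72 and 6.997 in the control pools (ratios 0.12 and 0.80, mean 0.46 ± 0.48, SD, n = 2 arrays, limma adjusted p = 1). The groups overlapped, since the female mutant value lay below the male control value. Kcnv1 was at 7.38 and 7.27 in the mutant pools, against 6.99 and 6.91 in the control pools. Its ratios, 0.39 and 0.36, were nearly equal (mean 0.38 ± 0.018, SD, n = 2 arrays, limma adjusted p = 1). With the processed signals the ratios of Kcnv1 were 0.82 and 0.60, past 1.5-fold on both arrays, and those of Kcnf1 were 0.39 and 1.23. Kcns3, expressed in vascular muscle, was at 0.08 and 0.45, with a mean of 0.26, or 0.15 after median centring.

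Among the Kcnh genes, relatives of the ether-a-go-go channel, 2 of 5 measured were higher and 2 lower on both arrays. Kcnh8 and Kcnh7 were the lower ones, at -0.26 and -0.07, and at -0.20 and -0.09. Their mean ratios were -0.16 and -0.15, or -0.39 for each with the processed signals. Kcnh4 was at 0.06 and 0.40, and Kcnh2, the cardiac repolarising channel, at 0.02 and -0.25. Kcnt2, a sodium-activated channel, was at -0.17 and -0.07.

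Both arrays gave a higher value for 2 and a lower value for 1 of 8 measured accessory genes. Kcnab1, a beta subunit of Kcna channels, was at 7.90 and 8.59 in the mutant pools, against 7.63 and 8.06 in the control pools. The groups overlapped, and the ratios were 0.27 and 0.53 (mean 0.40 ± 0.18, SD, n = 2 arrays, limma adjusted p = 1). Kcnip4, a Kcnd partner, was at 0.04 and 0.03, and Kcnip3, which also acts as a transcriptional repressor, at 0.06 and -0.37. The other probe of Kcnip3 was at 0.06 and -0.05, so its 2 probes differed in the sign of the mean (-0.15 and 0.0058). Kcne3, an accessory subunit of Kcnq1, was at 0.02 and -0.45.

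The mutant levels of 11 of the 65 genes both lay below both control levels, where 11.5% of all genes did so. For 10 genes both mutant levels lay above both control levels, where 12% of all genes did so.

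Other genes that move potassium were set beside the channels from a list of 37 genes, of which 32 were measured. Both arrays gave a higher value for 8 and a lower value for 10 of these, with medians of 0.06 and -0.11. The shares were 25% and 31.2%, against 22.1% and 21.4% of all genes. In limma 0 passed the adjusted p (0.0287% of all genes). At an unadjusted p under 0.05 in limma there were 3 (9.38%, against 4.04% of all genes). Atp1b1, the beta subunit of the sodium pump, was at 11.78 and 11.40 in the mutant pools, against 12.43 and 12.07 in the control pools. Both mutant values were below both control values, and the ratios were -0.65 and -0.67 (mean -0.66 ± 0.019, SD, n = 2 arrays, limma adjusted p = 0.623). It was the 1 gene of the list at least 1.5-fold lower on both arrays (0.0956% of all genes). Fxyd3, a pump regulator, and Hcn2, a pacemaker cation channel, were higher on both arrays, at 0.43 and 0.53, and at 0.43 and 0.31. The mean for Hcn2 was 0.37, but 0.18 over its probes and 0.21 after median centring. A list of voltage-gated sodium and calcium channels had 24 of 30 genes measured, with medians of 0.03 and 0.04. On both arrays 7 were higher and 3 lower (29.2% and 12.5%, against 22.1% and 21.4% of all genes). These numbers depended on the scaling. After median centring 4 were higher and 6 lower, where 15.5% and 38.1% of all genes were. With the processed signals 6 were higher and 5 lower, where 19.7% and 25.2% of all genes were. Both numbers were 5 in the series table, where 21% and 23.5% of all genes were higher and lower.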

How the data were processed

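RNA of mutant and control ureter pools was compared on 2 two-colour arrays, from 150 ng of total RNA per labelling. The deposited mean and local background signals are intensity values from Agilent Feature Extraction 10.7.3.1, not normalized, per the file headers and the submitters' processing notes. The authors' deposited series table holds a score per probe, a signed linear fold. Its steps, not given in the sources used here, leave its centring unknown. Correlations of 0.973 and 0.991 with the processed signals set its direction as mutant over control, and each column had a median of 1. The arrays shared 1 slide, so a slide effect could not be examined, and probe positions are those of mm9.

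The signals were background-corrected by normexp with an offset of 50, and loess with a span of 0.3 and control spots at weight 0 normalised each array. The tools were R 4.3.3 and limma 3.58.1, and spots with an outlier mark (3.35% and 3.05%) were left out. Spots of a probe were averaged, and array 2 was turned. A probe was measured if more than a share of 0.5 of its spots were well above background on both arrays in the mutant or in the control channel. That kept 27493 probes and 20923 genes, each represented by its brightest probe, so a difference between probes of a gene is given where it matters. Levels per channel were scaled between arrays (Aquantile) after loess. Ratios were tested against 0 with lmFit and eBayes (1 residual and 6.31 prior degrees of freedom), with Benjamini-Hochberg adjustment over all genes and a threshold of 0.05. The test was checked on simulated data. The arrays' number limits the precision, with the number of embryos per pool not given in the sources used here.

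The members and lists were chosen with earlier results of these data known. Genes named are those past the adjusted p, those at least 1.5-fold the same or opposite ways, the 3 of each subfamily with the largest mean of 1 sign, members with a known role, members whose probes differ, the 3 smallest, and the top of the potassium list. Some genes that this rule names are not reported here. Kcna4, Kcnk15, Kcnj2, Kcnmb4, Abcc9, the markers, Kcnj13, Kcnj9 and the unmeasured genes were named after their values were seen. Alternatives were median centring, the deposited processed signals, normexp offset 16, no filter, a filter on both groups, the mean over probes, the series table, outlier spots kept, array 2 unturned, each array alone and 2-fold. Promoters are from RefSeq (GRCm38.p6).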

Additional observations from a re-analysis of the deposited data

Results flagged for a closer look

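Kcna4, Kcnk15 and Kcnma1 had ratios of opposite sign on the 2 arrays, each at least 1.2-fold. The ratio of the male pools minus that of the female pools was -1.19 for Kcna4, 1.72 for Kcnk15 and -0.55 for Kcnma1 (log2). The difference between the arrays was not tested, and sex, dye and array cannot be told apart. The other 3 measured probes of Kcnma1 had ratios of 0.24 and 0.07, 0.29 and 0.02, and 0.04 and 0.03.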

How the results depend on the processing

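No potassium channel gene passed limma's adjusted p under any alternative run (lowest adjusted p of a member from 0.314 to 1), and the members at an unadjusted p under 0.05 numbered 5 to 9, or 2 with array 2 unturned. Kcnj16 kept its sign with a mean ratio of -0.97 to -0.83 over the 8 alternative settings. With the processed signals, 1 member (Kcnv1) was at least 1.5-fold higher on both arrays, against 0, and the Kcnq median was -0.17. The Kcna-d median was 0.16 in the series table. Each array alone gave 1 to 6 members higher and 2 to 2 lower by 1.5-fold, a median of -0.018 to 0.040 over all members and of -0.24 to -0.027 for Kcnm/n, and at 2-fold 0 were lower on both. Members higher and lower on both arrays numbered 22 and 13, but 18 and 19 after median centring, 18 and 17 with the processed signals and 20 and 18 in the series table. Of 43 named genes, 38 kept their sign under each of the 8 settings that gave them a value (7 for Kcnq3, which had none with a filter on both groups), and 5 did not, among them Kcnip4, Kcnj14, Kcnk5 and Kcnma1. Over all genes, calls numbered 6, but 0 after median centring, 0 without the filter, 13 at offset 16, 11 with the processed signals, 11 with a filter on both groups, 11 with outlier spots kept and 4 with the mean over probes. The cause was not tested. Each array sets a mutant pool against a control pool, so the tested ratios are already paired within arrays. The arrays form 1 group, and no further pairing was made.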
